A study of Mus musculus with 33 samples.

Results

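The 9 genes described here code for proteins of the unfolded protein response and of the heat shock response: Hspa5, Hsp90b1, Xbp1, Atf4, Ddit3, Hspa1b, Hsph1, Dnajb1 and Hspb1. They were taken by gene symbol from the 23366 genes of each of 2 tables of raw read counts, and each of the 9 was found in both tables. RNA-Seq was performed on frontal cortex of C57BL/6 offspring, about 1 month old, labelled female (16 libraries) or male (17 libraries), with the sexes sequenced in separate runs. Dams, and then nursing dams together with their pups, inhaled filtered air (6 libraries per sex), e-cigarette aerosol from liquid with nicotine at 13 to 16 mg/mL (5 female and 6 male libraries) or e-cigarette aerosol without nicotine (5 libraries per sex). Food and water were withheld during exposure in all groups, brains were taken some days after the last exposure, and 1 pup per litter was used per the methods of the study. The question was how far early life exposure to these aerosols altered the expression of each gene in sex-matched comparisons with air.

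Cells answer an excess of misfolded protein in the endoplasmic reticulum (ER) through 3 membrane sensors, IRE1 (Ern1), PERK (Eif2ak3) and ATF6. IRE1 splices the mRNA of the transcription factor XBP1, PERK slows translation while the mRNA of the transcription factor ATF4 continues to be translated, and cleaved ATF6 enters the nucleus, so that genes of ER chaperones such as Hspa5 (BiP) and Hsp90b1 (GRP94) are induced. ATF4 in turn induces Ddit3, which codes for CHOP, a factor linked to cell death. In the cytosol, heat shock factor 1 (Hsf1) induces the HSP70 genes Hspa1a and Hspa1b, the HSP110 exchange factor Hsph1, the HSP40 co-chaperone Dnajb1 and the small heat shock protein Hspb1. Neurons are known for a weak induction of Hspa1a and Hspa1b on stress compared with glia. Counts per gene do not separate spliced from unspliced Xbp1 mRNA and do not measure translation of Atf4.

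The ER stress response element (CCAAT, 9 bases of any kind, CCACG) is a promoter motif through which ATF6 acts, and the stretches that hold it are shown because Hspa5 and Hsp90b1 are the only members with a match. Both strands were searched in the 250 bases before each RefSeq start (GRCm38.p6), and the positions below were found by matching the RefSeq sequences, which each matched once, to the mm9 genome. Motif matches are in capitals, and in the second match of Hsp90b1 the motif lies on the opposite strand. The stretch of Hspa5 lies on the plus strand at chr2:34627533-34627609, inside a noncoding transcript of the gene and before its coding transcripts, and that of Hsp90b1 lies on the minus strand at chr10:86168255-86168413, before the first exon of its coding transcripts.
Hspa5: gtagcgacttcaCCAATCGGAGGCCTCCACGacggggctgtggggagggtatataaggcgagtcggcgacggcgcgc
Hsp90b1: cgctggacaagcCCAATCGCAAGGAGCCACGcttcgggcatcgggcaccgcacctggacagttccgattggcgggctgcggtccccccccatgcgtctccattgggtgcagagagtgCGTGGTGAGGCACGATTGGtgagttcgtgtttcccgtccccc
The match in Hspa5 runs from position -65 to -47 relative to the RefSeq start, and those in Hsp90b1 from -212 to -194 and from -107 to -89. The RefSeq start of Hsp90b1 lies inside its annotated first exon, and the stretch shown was cut where that exon begins. Its positions therefore cannot be counted back from the last base shown. The same motif occurs in 0.13% of 27025 genes with an entry. A strict heat shock element (GAA, TTC and GAA, each 2 bases apart) and an element of ATF4 targets (TGATG, 1 base, AAT) were found in 0 of the 9 members, against 0.514% and 0.910% of genes. These are matches of letters in 1 window and not measured binding.

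Total counts per library ran from 19150562 to 27513174 in the female table and from 17845672 to 24787955 in the male table. Levels are given as CPM, counts scaled by the normalized size of the library. In the library labelled male nicotine replicate 21 there were 4632 counts of Xist and 1 count over the Y-linked genes examined, unlike all other libraries labelled male (at most 5 and at least 2140). It is part of the male values below unless they are stated without it. Markers of cortical glutamatergic neurons were present in every library, with a summed level of 8146 to 10388 CPM in female air and 7641 to 8697 CPM in male air libraries. Without nicotine the sums were 4201 to 8047 CPM in female and 4068 to 6810 CPM in male libraries, where 12 and 11 of the 14 markers fell and 1 rose, and with nicotine they were 5519 to 8150 and 6231 to 7147 CPM, where 1 fell and 1 rose in females and 0 were called in males. None of these markers was at 0 counts. Of 10 myelin markers 9 rose without nicotine in each sex and 10 rose in females with nicotine, with sums of 8722 to 10580 CPM in female air, 11738 to 17695 CPM in female no nicotine, 14282 to 18188 CPM in female nicotine, 10072 to 12410 CPM in male air and 14703 to 25166 CPM in male no nicotine libraries. The 6 cholinergic markers, which basal forebrain neurons express, summed to 19.6 to 78.6 CPM in female air and 107 to 283 CPM in female no nicotine libraries, and to 34.2 to 80.2 and 110 to 233 CPM in the male ones, and all 6 rose. In female nicotine libraries they summed to 82.6 to 192 CPM and all 6 rose as well. Of 10 striatal markers 3 rose in females with nicotine, 1 in females without and 2 in males without. Of 8 choroid plexus markers 3 rose in males without nicotine, with sums of 31.9 to 964 CPM against 14.3 to 41.6 CPM in male air. The median of these no nicotine libraries, 38.1 CPM, lay inside the air range. Sums also reached 333 CPM in female air (median 19.9 CPM) and 294 CPM in female no nicotine libraries (median 42.6 CPM), where 0 were called. In males with nicotine 0 markers of these lists were called, in a fit that called 0% of all genes. The cholinergic markers there summed to 92.9 to 141 CPM, with a median log2 fold change of 1.03. Unadjusted, all 6 had p below 0.05, as did 10 of 14 cortical and 1 of 8 choroid plexus markers, beside 14.4% of all genes (edgeR). Of the 10 myelin and 10 striatal markers 0 did. The groups thus differ in cell type markers as well as in treatment, and fewer cells of a type cannot be told apart from less RNA per cell in bulk tissue.

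The ER chaperones were the most abundant members and Hspa1b and Hspb1 the least abundant. In air libraries, per kilobase of the longest annotated transcript, Hspa5 had a level of 132 ± 10.9 CPM per kb (SD, n = 6) in the female and 125 ± 11.03 in the male table. Hsp90b1 followed with 121 ± 8.42 and 119 ± 3.62 CPM per kb, and its libraries overlapped with those of Hspa5 in both tables. Hsph1 came next, at 91.4 ± 10.2 and 86.1 ± 3.26 CPM per kb, apart from its neighbours on either side. Atf4 (53.4 ± 3.36 and 55.0 ± 2.09 CPM per kb) and Xbp1 (49.98 ± 4.42 and 44.8 ± 4.61) overlapped with each other in both tables, as did Dnajb1 (30.4 ± 2.72 and 28.6 ± 3.12) and Ddit3 (26.0 ± 1.71 and 26.0 ± 0.774). Hspa1b stood far lower, at 0.963 ± 0.244 and 0.910 ± 0.132 CPM per kb, and its near-identical copy Hspa1a at 0.875 ± 0.0922 and 0.801 ± 0.0921. Hspb1 was lowest, at 0.255 ± 0.0985 and 0.295 ± 0.102 CPM per kb. The same order of the 9 genes was found in both tables.

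**Figure D1:**
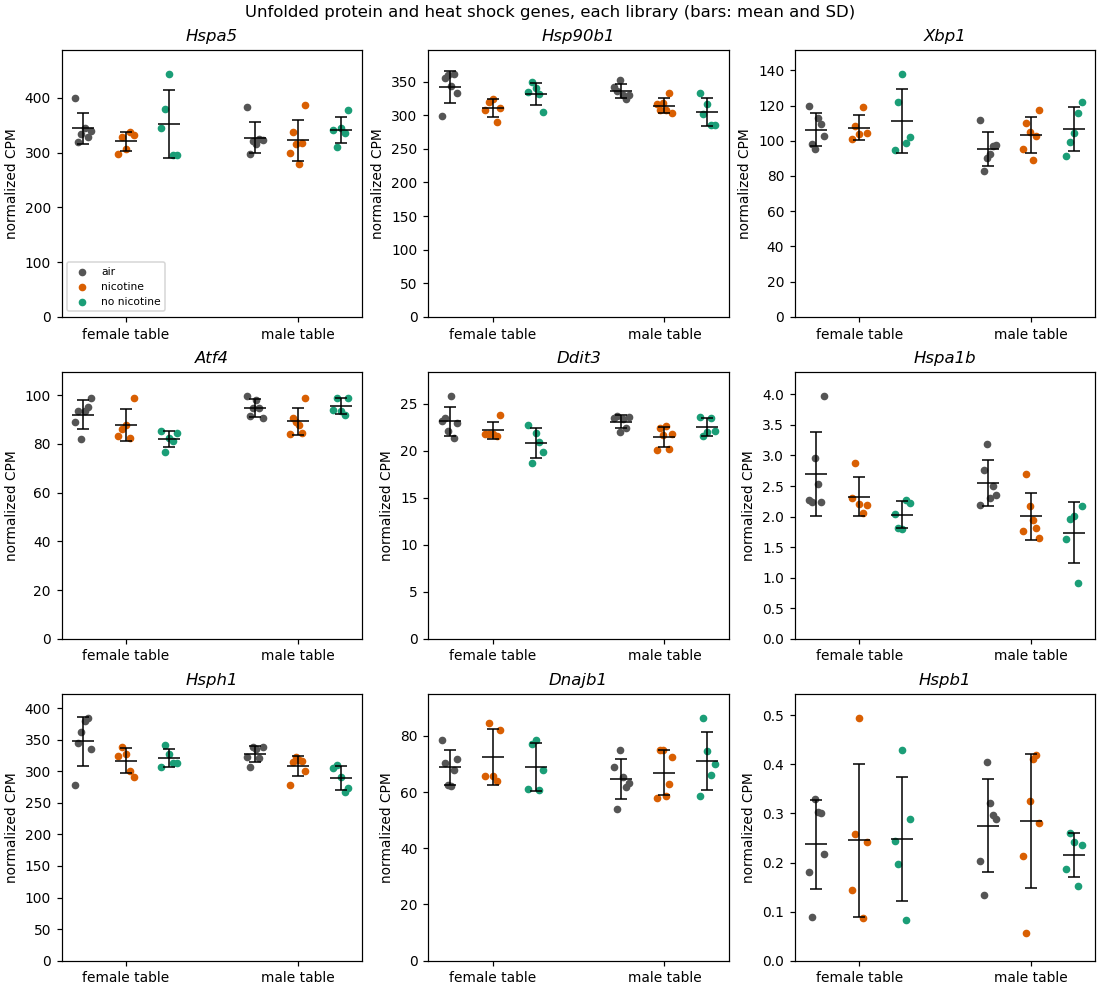
Normalized CPM (linear axis from 0) of each member in every library, by table and treatment group, with bars for the mean and SD of a group. The groups overlap for most members, the male no nicotine libraries of Hsph1 (267 to 311 CPM) lie mostly below the male air libraries (307 to 339 CPM), and those of Hspa1b all do.

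Depth differed accordingly: Hspa5 had 5435 to 11368 counts per library, Ddit3 377 to 684, Hspa1b 18 to 91 and Hspb1 1 to 11. Hspb1 fell below the filter on low counts in both tables and was not tested. Of the 50-base windows of the longest Hspb1 transcript 63.0% occur again elsewhere in mm9, and 62.3% of the windows of Hspa1b occur in Hspa1a, so that reads of these genes could be shared or lost in the mapping. Each of the other members had at most 1.69% of such windows. Ddit3 overlaps Mars and an antisense transcript, and Hsp90b1 a long noncoding RNA, on the opposite strand, and the sources used here do not state that the counting used strand.

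Against air, 7 of the 8 members tested were not called in any comparison, and 1, Hsph1, was called lower in males exposed without nicotine. At an adjusted p below 0.01 (edgeR), 0 of 8 members were called in females with nicotine, where 4.29% of all genes were called, and 0 of 8 in females without nicotine, where 12.1% were called. In males, 0 of 8 members were called with nicotine, where 0% of genes were called, and 1 of 8 without nicotine, where 13.6% were. DESeq2 called 0, 0, 0 and 2 members in the same order. Of all genes it called 1319 and 2591 of 15158 in females with and without nicotine. In males these were 159 and 2624 of 15293. At an unadjusted p below 0.05 the counts were 1 of 8 (28.1% of all genes) and 3 of 8 (36.4%) in females with and without nicotine, and 3 of 8 (14.4%) and 3 of 8 (36%) in males. These shares lay near or below those of all genes, except in males with nicotine, where the count without the library labelled replicate 21 was 1 of 8. Leaving out that library moved no member's log2 fold change in that comparison by more than 0.027.

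**Figure D2:**
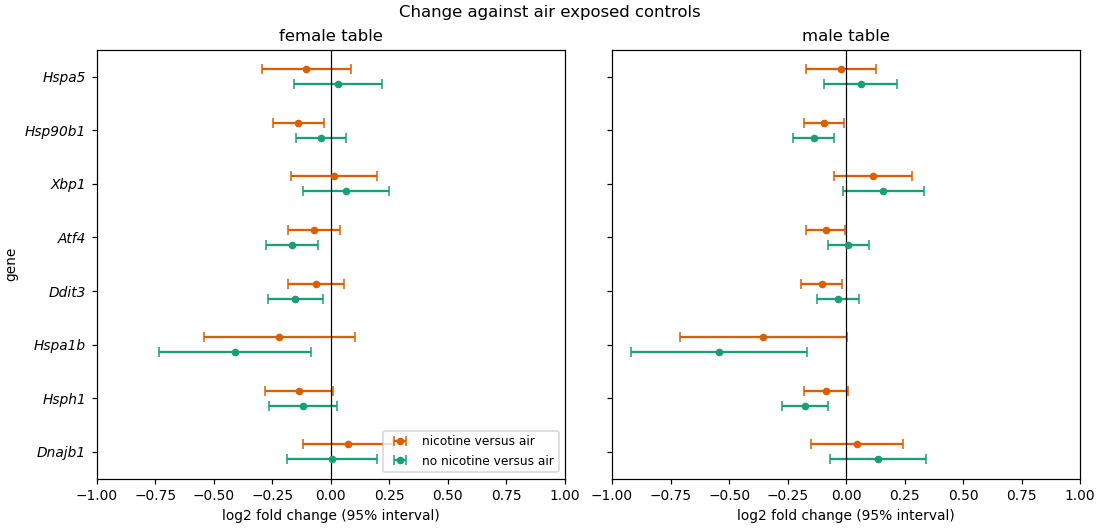
Log2 fold change against air with its 95% interval for the 8 members tested, in the female and male tables. All estimates but those of Hspa1b lie within 0.18 of 0, and Hspa1b has the widest intervals.

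The median log2 fold change of the 8 members was -0.09 in females with nicotine (all genes 0.00), -0.08 without nicotine (all genes 0.01), -0.09 in males with nicotine (all genes 0.01) and -0.01 without nicotine (all genes 0.02). Intervals for members other than Hspa1b stayed between -18.4% and 20.3% in females with nicotine, -17.5% and 18.7% in females without nicotine, -12.4% and 21.5% in males with nicotine and -17.4% and 26.8% in males without nicotine.

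Hspa5, the main HSP70 of the ER and the classical readout of the unfolded protein response, had no called change. In females, the air libraries had 320, 337 and 399.8 CPM (lowest, median, highest), those with nicotine had 297, 328, 306, 338 and 332 CPM, and those without nicotine 345, 381, 443, 296 and 295 CPM. The no nicotine libraries spread on both sides of the air libraries. The log2 fold change was -0.10 (95% interval -0.29 to 0.09) with nicotine and 0.03 (-0.16 to 0.22) without. In males the air libraries had 297, 322 and 383 CPM, the nicotine libraries 279, 317 and 387 CPM, and the no nicotine libraries 341, 311, 346, 336 and 377 CPM. The groups overlapped, and the log2 fold change was -0.02 (-0.17 to 0.13) with and 0.06 (-0.09 to 0.22) without nicotine.

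Hsp90b1, the HSP90 of the ER, had estimates slightly below air in each comparison, none of which passed the threshold of 0.01 with edgeR. In the male air libraries it had 324, 333 and 352 CPM (lowest, median, highest), and in the male no nicotine libraries 334, 302, 317, 286 and 285 CPM, of which 4 lay below every air library. The log2 fold change was -0.14 ± 0.04 (SE), with an adjusted p of 0.0220 by edgeR and 0.00404 by DESeq2. The male nicotine libraries ran from 304 to 333 CPM with a log2 fold change of -0.09 ± 0.04 (adjusted p = 0.287). The highest was the library labelled replicate 21, and the others, at 304 to 318 CPM, lay below every male air library. Without replicate 21 the log2 fold change was -0.11 (adjusted p = 0.248). In females the air libraries had 299, 349 and 361 CPM and the nicotine libraries 309, 320.5, 324, 289.6 and 311 CPM, with a log2 fold change of -0.14 ± 0.05 (adjusted p = 0.0864). Without nicotine it was -0.04 ± 0.05 (adjusted p = 0.603).

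Xbp1, the factor whose mRNA IRE1 splices, had 82.6, 94.7 and 112 CPM (lowest, median, highest) in male air libraries, 89.2, 104 and 118 CPM with nicotine and 91.1, 99.6, 105, 116 and 122 CPM without nicotine. The groups overlapped, with log2 fold changes of 0.11 (95% interval -0.05 to 0.28) with and 0.16 (-0.01 to 0.33) without nicotine. In females these were 0.01 (-0.17 to 0.20) and 0.06 (-0.12 to 0.25). With the cortical glutamatergic marker score of each library as a covariate, Xbp1 was at 0.25 with and 0.50 without nicotine in males. In females Xbp1 was then at -0.17 and -0.20, and none of these was called. Its activator Ern1 was not called in any comparison with air, at -0.08 to 0.16 on the log2 scale, nor was Eif2ak3, at -0.05 to 0.01. Atf6, in contrast, fell in females without nicotine, from 101 ± 15.9 CPM (SD, n = 6) in air to 69.3 ± 6.61 CPM (n = 5), by 0.54 on the log2 scale (adjusted p = 0.00298). In males without nicotine the log2 fold change of Atf6 was -0.22 ± 0.06 (adjusted p = 0.0150). Mbtps2, a protease that cleaves ATF6, fell in males without nicotine from 40.3 ± 2.92 to 32.3 ± 1.38 CPM (log2 fold change -0.32, adjusted p = 0.000225) and had -0.19 ± 0.06 in females (adjusted p = 0.0372).

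Atf4 and Ddit3, the factor of the PERK branch and its target, did not pass the threshold in any comparison with air. Atf4 had 82.0, 93.6 and 98.6 CPM (lowest, median, highest) in female air libraries and 85.2, 76.4, 82.6, 81.3 and 84.4 CPM in female no nicotine libraries. All 5 lay below the air median, while 1 air library, replicate 3, lay among them. The log2 fold change was -0.17 ± 0.05 (adjusted p = 0.0291), and with 1 library left out it ran from 0.00852 (without that air library) to 0.0873 (without no nicotine replicate 2). In males without nicotine Atf4 had 93.9, 99.0, 93.4, 91.7 and 98.8 CPM against 90.4 to 99.6 CPM in air, with a log2 fold change of 0.01 ± 0.04. The difference between the sexes in this change was -0.17 (95% interval -0.30 to -0.03), with an unadjusted p of 0.0171 and an adjusted p of 0.945 (edgeR). With nicotine the log2 fold change of Atf4 was -0.07 ± 0.05 in females and -0.09 ± 0.04 in males (-0.07 without the library labelled replicate 21).

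Ddit3 had 21.4, 23.1 and 25.8 CPM (lowest, median, highest) in female air libraries, 21.8, 21.8, 21.8, 21.5 and 23.9 CPM with nicotine and 22.7, 18.7, 21.9, 20.97 and 19.9 CPM without nicotine. Of the no nicotine libraries 3 lay below the lowest air library, and the nicotine libraries lay within the air range. The log2 fold change was -0.15 ± 0.06 without nicotine (adjusted p = 0.0614) and -0.06 ± 0.06 with nicotine (adjusted p = 0.522). In males it was -0.04 ± 0.04 without nicotine and -0.10 ± 0.04 with nicotine (adjusted p = 0.247), or -0.09 without the library labelled replicate 21 (adjusted p = 0.398). No induction of Ddit3 was detectable: the upper bounds of the intervals against air were 0.06 and -0.03 on the log2 scale in females with and without nicotine, and -0.02 and 0.05 in males. Of the 22 ATF4 target genes of a fixed list, 0 were called in 3 of the comparisons with air by edgeR, where 3 (females with nicotine), 5 (females without) and 1 (males with nicotine) had an unadjusted p below 0.05, beside 28.1%, 36.4% and 14.4% of all genes. In males without nicotine, where 13.6% of all genes were called, 1 was, namely Ddit4, an inhibitor of mTORC1 signalling, which rose from 59.4 ± 7.90 to 84.1 ± 15.9 CPM (log2 fold change 0.50, adjusted p = 0.00477).

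Hsph1, the HSP110 that exchanges nucleotide on HSP70, was the member called. It had 307, 329 and 339 CPM (lowest, median, highest) in male air libraries and 305, 311, 291, 267 and 273 CPM in male no nicotine libraries. Replicate 3 of the latter lay inside the air range and the others below it. The log2 fold change was -0.18 ± 0.05 (95% interval -0.28 to -0.08), or -11.6%, with an adjusted p of 0.00990 (edgeR), just under the threshold. With each library left out in turn the adjusted p ran from 0.00574 to 0.0291, and it was above 0.01 in 13 of 17 such fits, that is, without any 1 library other than air 31, nicotine 15, no nicotine 2 and no nicotine 3. Without the library labelled nicotine replicate 21 it was 0.0125. With the cortical glutamatergic marker score of each library as a covariate, the log2 fold change was -0.30 with an adjusted p of 0.151, in a fit that called 13 of all genes. The male nicotine libraries had 279, 315 and 323 CPM, with a log2 fold change of -0.09 (95% interval -0.18 to 0.01). In females it was -0.13 (-0.28 to 0.01) with and -0.12 (-0.26 to 0.03) without nicotine, and the difference between the sexes without nicotine was 0.07 (-0.10 to 0.24).

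Hspa1b, a stress-inducible HSP70 gene, had the largest estimates on the log2 scale together with the fewest counts among the members tested. In male air libraries it had 2.20, 2.43 and 3.19 CPM (lowest, median, highest), and in the no nicotine libraries 1.63, 1.95, 2.01, 0.911 and 2.18 CPM. All no nicotine libraries lay below all air libraries, with a log2 fold change of -0.54 ± 0.18 (adjusted p = 0.0338). In females the air libraries had 2.23, 2.40 and 3.97 CPM and the no nicotine libraries 2.04, 1.82, 1.79, 2.27 and 2.23 CPM, with a log2 fold change of -0.41 ± 0.15 (adjusted p = 0.0608). With nicotine the log2 fold change was -0.22 (95% interval -0.54 to 0.10) in females and -0.35 (-0.71 to 0.00) in males. Its copy Hspa1a gave -0.05 ± 0.12 and 0.06 ± 0.17 without nicotine in females and males, with levels of 1.92 to 3.65 CPM in male no nicotine libraries against 2.03 to 2.76 CPM in air. The split of reads between these near-identical genes is uncertain.

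Dnajb1, the HSP40 that hands clients to HSP70, varied more between libraries of a group (coefficient of variation 8.96% to 14.5%) than Ddit3 (2.98% to 7.63%). Its log2 fold changes were 0.07 (95% interval -0.12 to 0.27) and 0.01 (-0.19 to 0.20) in females with and without nicotine, and 0.05 (-0.15 to 0.24) and 0.14 (-0.07 to 0.34) in males. Hspb1, a small heat shock protein, had 0.0894 to 0.329 CPM in female air, 0.0877 to 0.494 with and 0.0827 to 0.429 CPM without nicotine, and 0.133 to 0.405, 0.0561 to 0.418 and 0.152 to 0.260 CPM in the male groups. These ranges overlapped, and with at most 11 counts per library no direction could be read. Hsf1, the activator of these genes, had log2 fold changes from -0.07 to 0.00 and was not called in any comparison with air.

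Between the aerosols, 0 of 8 members were called in females (0% of all genes) and 0 of 8 in males (0.248% of all genes) by edgeR. DESeq2 called 0 members in each, beside 0 of 15158 genes in females and 458 of 15293 in males. At an unadjusted p below 0.05 there were 0 of 8 in females (8.36% of all genes) and 1 of 8 in males (20.1%), Atf4, with a log2 fold change of -0.10 ± 0.04 for nicotine against no nicotine (adjusted p = 0.205), and -0.08 without the library labelled replicate 21. Without that library 0 of 8 members had an unadjusted p below 0.05 and 5 of 15229 genes were called in this comparison, against 38 of 15293 with it. The change against air differed between the sexes for 0 of 8 members with nicotine (0% of genes called) and 0 of 8 without (0% of genes called). Unadjusted, 0 of 8 members (6.47% of genes) and 1 of 8 (4.91%), Atf4 as given above, were below 0.05, and these counts were 0 and 1 when the library labelled replicate 21 was left out. Sex and sequencing run cannot be told apart in this comparison.

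The wider set of 124 genes of these pathways was also seldom called. In females with nicotine 0 of 123 tested genes passed the threshold, where 4.29% of all genes did. Before adjustment 26 of the 123 had p below 0.05, beside 28.1% of all genes. In the male nicotine group 0 of 122 passed, in a fit that called 0% of all genes, so this count cannot set the pathways apart. Before adjustment 12 of the 122 were below 0.05, beside 14.4% of all genes. When the library labelled replicate 21 was left out of this comparison, no gene of the table passed. Without nicotine 3 rose and 4 fell in females, where 5.03% of all genes rose and 7.03% fell. In males 3 rose and 5 fell, where 6.15% rose and 7.47% fell. Before adjustment 36 of 123 (females) and 40 of 122 (males) were below 0.05 without nicotine, beside 36.4% and 36% of all genes. The median log2 fold change of the set was 0.00 without nicotine in females (all genes 0.01) and 0.01 in males (all genes 0.02). Of 4 heat shock factors and 3 other eIF2α kinases 0 were called and 0 had an unadjusted p below 0.05 in the comparisons with air. Of 19 genes of HSP90 and its co-chaperones 0 were called and 0 to 4 had an unadjusted p below 0.05. In these comparisons 0% to 13.6% of all genes were called, and 14.4% to 36.4% had an unadjusted p below 0.05 (edgeR).

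The genes that changed came from several lists. Among 22 ER chaperones and folding enzymes, P4hb, a protein disulfide isomerase, rose in females without nicotine from 186 ± 5.37 to 205 ± 8.99 CPM (adjusted p = 0.00829), with 181 ± 2.08 and 197 ± 9.80 CPM in males (adjusted p = 0.0159). Among 16 genes of ER-associated degradation, Sel1l, a subunit of the HRD1 ubiquitin ligase complex, fell without nicotine from 281 ± 18.5 to 246 ± 4.58 CPM in females (adjusted p = 0.00463) and from 274 ± 8.60 to 243 ± 8.56 CPM in males (adjusted p = 0.00194).

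In the HSP70 and HSP110 list the median log2 fold change without nicotine was -0.10 in females (all genes 0.01) and -0.12 in males (all genes 0.02). Of its 12 genes 1 fell in females, where 7.03% of all genes fell, and 3 fell in males, where 7.47% did, and 0 rose. Hspa12a, a distant HSP70 relative, fell from 292 ± 22.2 to 240 ± 19.6 CPM in females (adjusted p = 0.00411) and from 303 ± 15.8 to 232 ± 14.4 CPM in males (adjusted p = 6.96e-05). Hspa2 fell in males from 75.2 ± 3.75 to 57.9 ± 5.41 CPM (adjusted p = 0.00253), beside Hsph1. Of 10 HSP40 genes, Dnajb2, a neuronal co-chaperone, rose in both sexes by 0.20 and 0.17 on the log2 scale (adjusted p = 0.00497 and 0.00130), and Dnajb5 fell in females by 0.41 (adjusted p = 0.00598). Of the small heat shock genes, Hspb8 rose in females from 30.3 ± 3.89 to 41.1 ± 2.35 CPM (adjusted p = 0.00159). Cryab, which oligodendrocytes and astrocytes express, rose in males from 109 ± 7.35 to 130 ± 14.1 CPM (adjusted p = 0.00578). Cortical and myelin markers moved in the same comparisons, as given above, and their part in these changes was not tested.

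Part of the variation among libraries of a group was shared between members. After the mean of each treatment group was removed from log2 CPM, Hspa5 and Xbp1 varied together: Pearson's r was 0.83 over the 16 female libraries (permutation p = 0.00203, adjusted p = 0.0528) and 0.84 over the 17 male libraries (permutation p = 0.00011, adjusted p = 0.00616). Spearman's rho was 0.76 (permutation p = 0.00522, adjusted p = 0.0974) and 0.73 (permutation p = 0.00198, adjusted p = 0.0907). Without the 2 libraries farthest from the median of Hspa5, r was 0.65 and 0.77, and in the male table it was 0.84 over the 16 libraries other than nicotine replicate 21. Of the 56 pair correlations computed in the 2 tables, this was the only one with an adjusted p of r below 0.05, and it passed in the male table alone. The 2 ER chaperones did not share this pattern, since r between Hspa5 and Hsp90b1 was -0.07 in females and -0.12 in males, and Atf4 and Ddit3 had r of 0.50 and 0.15.

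**Figure D3:**
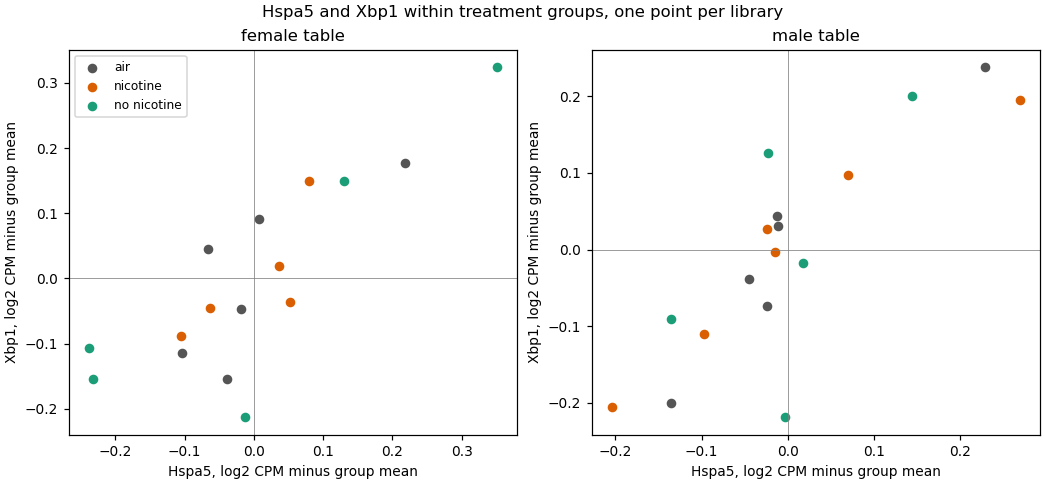
Deviation of log2 CPM from the treatment group mean for Hspa5 (horizontal) and Xbp1 (vertical), 1 point per library, coloured by group. Libraries high in Hspa5 are high in Xbp1 in both tables (r = 0.83 and 0.84).

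Many ER chaperone genes also varied with Hspa5. Of the 21 others on that list, 10 had r above 0.5 with Hspa5 in the female table, against 5.75% of all genes, and 8 in the male table, against 4.46% of all genes. Pdia4, a disulfide isomerase, had r of 0.94 and 0.87, Manf, a secreted ER stress protein, 0.72 and 0.87, the co-chaperone Dnajc3 0.66 and 0.85, and Sdf2l1 0.64 and 0.80. The degradation factor Herpud1 had 0.62 and 0.63 with Hspa5 and 0.74 and 0.75 with Xbp1. For Hsp90b1 the median r over the same list was 0.07 and 0.00. The 2 values of a pair come from the same library and share its dissection, extraction and depth, and these correlations are a description without a test.

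**Figure D4:**
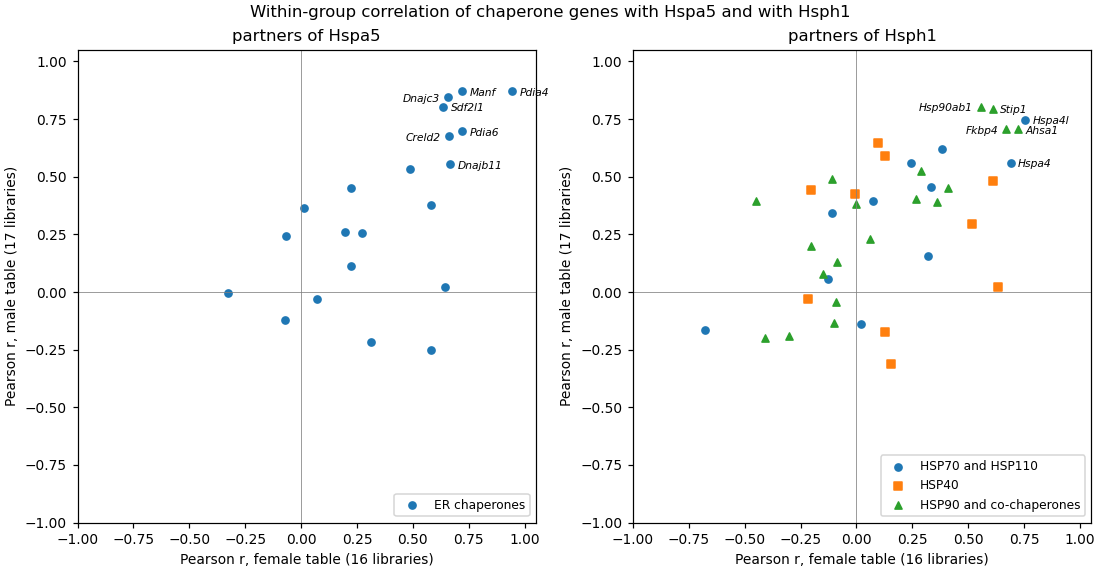
Pearson's r of genes from chaperone lists with Hspa5 (left) and with Hsph1 (right) after removal of group means, in the female table (horizontal, 16 libraries) and the male table (vertical, 17 libraries). Names mark genes with r above 0.5 in both tables, among them Pdia4 and Manf for Hspa5 and Hspa4l and Stip1 for Hsph1.

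Hsph1 varied with some of the cytosolic chaperones. Of 11 other HSP70 and HSP110 genes 2 had r above 0.5 with it in females and 4 in males, and of 19 genes of HSP90 and its co-chaperones 4 and 5 did, beside 6.39% and 8.43% of all genes. Hspa4l, a further HSP110, had r of 0.75 and 0.75 with Hsph1, Hspa4 0.69 and 0.56, the HSP70 to HSP90 adaptor Stip1 0.61 and 0.79, the HSP90 activator Ahsa1 0.72 and 0.71, and Hsp90ab1 itself 0.56 and 0.80. In the male table the list medians were 0.39 for HSP70 and HSP110 genes and 0.39 for HSP90 and its co-chaperones. In the female table they were 0.24 and 0.00. Other genes of these lists went the other way, such as Hspa2 (-0.68 and -0.16) and Fkbp5 (-0.41 and -0.20), and the ER chaperone Hsp90b1 had r of 0.80 and 0.46 with Hsph1. The male values include the library labelled nicotine replicate 21. Dnajb1 had r of 0.77 and 0.79 with Dnajb4, a related HSP40.

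Over all libraries of a table, group differences included, genes were ranked by the mean of their r in the female and male tables. By this mean the gene most like Hspa5 was Pdia4 (r = 0.86 over 16 and 0.83 over 17 libraries), which was also most like Xbp1 (0.86 and 0.85). In the male table alone Zbtb40 (0.86) was above Pdia4 for Hspa5. The gene most like Hsp90b1 was Pdia3, which codes for another disulfide isomerase (0.91 and 0.70). By the same mean it was Sorcs3 for Hsph1 (0.82 and 0.82) and Ppp1r15b, which codes for a subunit of the phosphatase of eIF2α, for Dnajb1 (0.87 and 0.80). For Atf4 it was Slc25a44 (0.78 and 0.59) and for Hspa1b Elk4 (0.71 and 0.76). In the male table alone Nsun2 (0.83) was above Sorcs3, Rasd1 (0.84) above Ppp1r15b, Stau1 (0.67) above Slc25a44 and Osbpl10 (0.84) above Elk4. By this mean, 3 of the 8 members tested had a disulfide isomerase of the ER as the gene most like them. Pdia4 enters for both Hspa5 and Xbp1, which were themselves alike (r = 0.79 and 0.78). No share over all genes was computed for this count, and it was not tested.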

How the data were processed

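Frontal cortex RNA-Seq was measured in 33 libraries. Per the methods of the study and the processing notes, the authors mapped single reads to the mm9 transcriptome with Bowtie, removed PCR duplicates with SAMtools and counted reads per gene with HTSeq, and they deposited raw counts in 1 table per sex. The deposited normalized values were not used. Of the 34 count columns, 33 matched a labelled sample and 1 was not used.

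Genes with CPM summed over a sex of at least 5 were tested (15158 female, 15293 male) with TMM and the quasi-likelihood test of edgeR 4.0.16, 3 groups in 1 fit per sex, Benjamini-Hochberg adjustment and a threshold of 0.01. The study used DESeq2, which is an alternative here (version 1.42.0). Differences between the sexes came from a fit of 6 groups on 15105 genes. Pair correlations used 100000 permutations within groups, two-sided, adjusted over 56 values. The fits were tested on simulated data. R 4.3.3, Python 3.11.15 and matplotlib 3.10.9 were used.

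The text names all members, Hspa1a, 4 regulators, up to 4 called genes of each list by smallest p, and the gene most like each member (that of Ddit3 is not reported here). Further partners named in the pair comparisons were picked with their values in view. Members, gene lists and tests were chosen with earlier results of these data known. Within-group pairs of libraries differed by more than sampling noise (chi-square per degree of freedom at least 4.46), and libraries came from separate litters per the study.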

Additional observations from a re-analysis of the deposited data

Results flagged for a closer look

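In 3 of 54 sets of a member and a treatment group, 1 library stood apart from the others of its group by Dixon's 95% criterion, which chance meets in about 1 of 20 sets. Hspa5 had 399.8 CPM in female air replicate 1, against 320 to 345 CPM in the other 5 female air libraries, and 383 CPM in male air replicate 30, against 297 to 324 CPM in the others. In the same 2 libraries Xbp1 was the highest of its group, at 119.9 and 112 CPM. Ddit3 had 23.9 CPM in female nicotine replicate 6, against 21.5 to 21.8 CPM in the other 4. No member moved one way in all exposed libraries of one sex and the other way in all of the other sex.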

How the results depend on the processing

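The number of members called in males without nicotine was 1, and it became 0 with upper quartile scaling, without the low-count filter and with the cortical marker score as covariate, 2 with DESeq2 (Hsph1 and Hsp90b1), and 0 to 2 with 1 library left out (2 without no nicotine replicate 2). In females without nicotine it was 0, and 0 to 1 with 1 library left out (1, Atf4, without air replicate 3). All other counts of members called stayed 0 under every alternative run. Female replicate numbers were shared by 14 pairs of libraries, of which 4 had a correlation above 0.1 (-0.27 to 0.27). Of 16 female libraries 7 correlated best, among libraries of other groups, with one of their own number. These values do not settle whether the numbers pair the samples. A replicate block left 136 of 15158 genes called with nicotine and 736 without, against 651 and 1829 in the main fit. With the replicate block the adjusted p of Atf4 in females without nicotine was 0.0663, and 0 members were called in the female comparisons, as without it, and Hsph1 for nicotine against no nicotine turned to 0.011 on the log2 scale. The male groups shared no replicate number. With the cortical marker score as covariate the log2 fold change turned in sign for 8 values, none called: in females with nicotine Xbp1 (-0.17) and Dnajb1 (-0.21), without nicotine Hspa5 (-0.21), Xbp1 (-0.20) and Dnajb1 (-0.38), and between the aerosols Xbp1 (0.026); in males Hspa5 with nicotine (0.090) and Ddit3 without (0.031). With the same covariate Xbp1 was at 0.25 with and 0.50 without nicotine in males, and without nicotine Hspa5 was at 0.34 and Hsp90b1 at -0.25, with adjusted p from 0.127 to 0.518 (edgeR). With 1 library left out, small log2 fold changes crossed 0 in 9 cases. The ranges were -0.027 to 0.053 for Xbp1 in females with nicotine, -0.025 to 0.11 for Xbp1, -0.066 to 0.088 for Hspa5 and -0.045 to 0.044 for Dnajb1 in females without nicotine, and -0.094 to 0.039 for Xbp1 and -0.039 to 0.016 for Hsph1 between the female aerosol groups. In males they were -0.081 to 0.029 for Hspa5 with nicotine, -0.0054 to 0.023 for Atf4 without nicotine and -0.097 to 0.0074 for Xbp1 between the aerosols. The cause of these shifts was not tested. Low counts limit Hspa1b and Hspb1.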
